A study of Mus musculus with 10 samples.

Results

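The genes described here are the D cyclins, their kinases and the inhibitors of those kinases: Ccnd1, Ccnd2, Ccnd3, Cdk4, Cdk6, Cdkn1a, Cdkn1b, Cdkn2a, Cdkn2b and Cdkn2c. They were taken by name, as the genes of entry into the cell cycle from G1, and make up 10 of the 57010 Ensembl rows of the counts. All 10 were detected, and all 10 passed the low-count filter both with all 10 libraries and without wild-type replicate 5. Each library holds poly(A) RNA of whole, untreated mammary tumour tissue from a mouse of genotype PyMT; RHBDL4 -/- (knockout, 5 libraries) or PyMT; RHBDL4 +/+ (wild type, 5 libraries), collected 5 weeks after tumour onset. All mice of both groups carry MMTV-PyMT, in which the mouse mammary tumour virus promoter drives the polyoma middle T oncogene in mammary epithelium. RHBDL4, the product of Rhbdd1, is a membrane-embedded rhomboid protease of the secretory pathway. The labels used here give no strain, age or Cre driver. The design asks how the tumours of the 2 genotypes differ in their transcripts.

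D cyclins bind and activate the kinases CDK4 and CDK6, which phosphorylate the retinoblastoma protein and so release E2F transcription factors that switch on genes of DNA synthesis. The INK4 inhibitors (the products of Cdkn2a to Cdkn2d) bind CDK4 and CDK6 directly, whereas the CIP/KIP inhibitors (the products of Cdkn1a to Cdkn1c) act mainly on cyclin-CDK2 complexes and can also hold cyclin D complexes together. In mammary epithelium cyclin D1 is the D cyclin best known for its role, in alveolar growth and in tumours driven by Erbb2 or Ras.

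Promoter sequences from RefSeq (GRCm38.p6) were matched by symbol for 8 of the 10 genes, with 12 start sites. Ccnd1 and Ccnd2 had no entry. The 250 bases before a start are shown for the genes around which the results below turn. Capitals mark matches on either strand to 1 of 3 motifs. These are the E-box CACGTG (bound by MYC and related factors), the p53 half-site pair (CATG, then 6 bases of any kind, then CATG), and, as an E2F element, any of TTTGGCGC, TTTCCCGC, TTTGCCGC and TTTCGCGC. No window of the genes described held matches to more than 1 of these motifs. Cdk4 (chr10:127063285-127063534, plus strand) is shown for its 4 E-boxes. Cdkn1a is shown at the upstream of its 2 starts (chr17:29090729-29090978, plus strand) for its p53 half-site pair. Cdkn2a is shown at the upstream start (chr4:89294620-89294869, minus strand), from which the ARF transcript begins, for an E2F element. Cdkn2c (chr4:109666757-109667006, minus strand) is shown as the gene with the smallest p below when all libraries are used, and its window holds none of the 3 motifs.
Cdk4: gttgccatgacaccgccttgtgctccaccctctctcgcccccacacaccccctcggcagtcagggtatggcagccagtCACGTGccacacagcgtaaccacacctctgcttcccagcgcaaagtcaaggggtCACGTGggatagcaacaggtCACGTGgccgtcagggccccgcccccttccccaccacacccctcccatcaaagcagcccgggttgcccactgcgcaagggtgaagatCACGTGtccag
Cdkn1a: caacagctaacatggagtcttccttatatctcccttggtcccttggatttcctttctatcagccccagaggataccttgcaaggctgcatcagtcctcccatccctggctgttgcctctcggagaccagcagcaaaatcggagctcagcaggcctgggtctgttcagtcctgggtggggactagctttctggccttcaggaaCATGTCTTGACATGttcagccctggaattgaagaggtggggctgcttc
Cdkn2a: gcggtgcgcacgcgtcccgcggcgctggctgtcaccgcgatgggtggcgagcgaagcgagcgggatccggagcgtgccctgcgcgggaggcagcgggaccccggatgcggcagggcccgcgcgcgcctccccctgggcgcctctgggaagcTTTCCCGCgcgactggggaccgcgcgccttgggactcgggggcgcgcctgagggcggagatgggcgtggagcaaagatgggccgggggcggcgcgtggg
Cdkn2c: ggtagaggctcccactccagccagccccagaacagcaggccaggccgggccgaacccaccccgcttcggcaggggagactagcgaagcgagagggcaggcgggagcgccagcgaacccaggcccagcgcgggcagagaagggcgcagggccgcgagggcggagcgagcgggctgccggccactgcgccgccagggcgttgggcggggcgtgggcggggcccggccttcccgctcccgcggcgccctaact

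The E-boxes of Cdk4 begin 172, 118, 98 and 11 bases before the start. Of 32851 promoter windows of this length, 6.02% held at least 1 E-box and 0.0213% (7 windows) held at least 4. Cdk6 had 1 E-box, 220 bases before its start, and no other window of the genes described held one. The p53 pair of Cdkn1a begins 48 bases before the upstream start, and 0.490% of all windows held such a pair. An E2F element stood in 1.86% of all windows, and in these genes only before the upstream start of Cdkn2a, 99 bases from it. A match describes letters in this window and is not evidence of a bound site.

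Levels are CPM, read counts scaled to the size of the library with its composition corrected by the TMM method, and fold changes are log2 differences of knockout minus wild type from edgeR's quasi-likelihood test, with p-values adjusted over all genes tested (Benjamini-Hochberg, threshold 0.05). The libraries held between 25.7 and 43.3 M counts. Where a group's 5 values are listed, they follow the order of replicates 1 to 5. Rhbdd1 checks the labels: it ran from 13.2 to 22.3 CPM in the knockout libraries, from 33.5 to 45.4 CPM in wild-type replicates 1 to 4, and stood at 25.0 CPM in wild-type replicate 5. On unscaled totals that library would stand at 14.6 CPM, inside the knockout range of 13.4 to 24.0 CPM, so the check of its label rests on the scaling. Epcam, an epithelial adhesion protein that marks the labelled tissue, ran from 1043 to 1594 CPM in 9 libraries and stood at 29.1 CPM in wild-type replicate 5. In that library 12 luminal markers summed to 148 CPM against 4882 to 8343 CPM in the other 9, 11 skeletal muscle markers to 140727 against at most 1590 CPM, and 10 adipocyte markers to 12102 against at most 1925 CPM. Its label as tumour tissue is therefore not borne out by the epithelial markers, and fold changes are given with and without it. Its TMM factor was 0.588, against 1.007 to 1.101 elsewhere, which raises its CPM. In 3 pairs (replicates 3 and 4 of the knockout, and 1 with 2 and 3 with 4 of the wild type) the library names begin with a shared number. No label ties a library to an animal, so the p-values here reflect only how far these libraries spread, which may be technical. In whole tissue, fewer cells of a type and less RNA per cell cannot be told apart.

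With wild-type replicate 5 left out, Ccnd1, Cdk4, Cdk6 and Cdkn2c stood lower in knockout than in wild-type tumours, by 0.30 to 0.75 on the log2 scale. Each had an edgeR unadjusted p under 0.05, whereas Ccnd3 and Cdkn1a stood higher without reaching that level in edgeR. None of the 10 genes passed the test over all genes. With all 10 libraries edgeR called 0 of 10, where 0.00% of 18577 genes were called, and without wild-type replicate 5 it called 0 of 10, where 0.0105% of 19016 genes were called. DESeq2 and limma-voom with sample quality weights (weighted voom below) also called 0 of 10 in both fits, where they called 0.291% and 0.0915% of genes with all libraries and 2.43% and 0.752% without wild-type replicate 5. At an unadjusted p under 0.05, edgeR found 1 of 10 lower with all libraries (background for lower genes 4.44%) and 4 of 10 lower without wild-type replicate 5 (background 5.85%), and 0 of 10 higher in either fit (2.56% and 5.74%). Without wild-type replicate 5 the genes at that level were 2 of 10 (Ccnd1 and Cdkn2c) both with sums per leading number and with that number as a block. Over all genes tested, 1044 of 21078 were at that level with the sums and 1182 of 19016 with the block. The block was fitted by limma-voom without quality weights, so it changed the tool as well. This fit gave Cdk4 an unadjusted p = 0.0935 (adjusted p = 0.835) and Cdk6 an unadjusted p = 0.0967 (adjusted p = 0.837). Leaving out 1 further library moved the count in edgeR between 2 (without knockout replicate 3, wild-type replicate 2 or wild-type replicate 3) and 7 (without wild-type replicate 1). Over all genes tested the counts were then 1646 of 18774, 1848 of 19424, 1823 of 19461 and 2125 of 19548, in the same order. Log2 fold changes were negative for 7 of 10 genes in both fits, where 56.2% and 46.8% of all genes tested were negative, with medians of -0.16 and -0.25 against -0.06 and 0.03 over all genes. Separation of the groups without overlap occurred for 0 of 10 genes in either fit. Its background with all libraries was 1.18% lower and 0.807% higher (1.99% in all), and without wild-type replicate 5 it was 3.44% lower and 2.00% higher (5.44% in all). At an unadjusted p under 0.05, weighted voom found 6 of 10 genes in both fits (background 18.8% and 18.5%). Among them Ccnd3 (weighted voom unadjusted p = 0.00411 with all libraries and 0.00486 without wild-type replicate 5) and Cdkn1a (0.00419 and 0.00457) were higher. The others were lower, namely Ccnd1, Cdk6 and Cdkn2c in both fits, Cdkn2b with all libraries and Cdk4 without wild-type replicate 5.

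**Figure D1:**
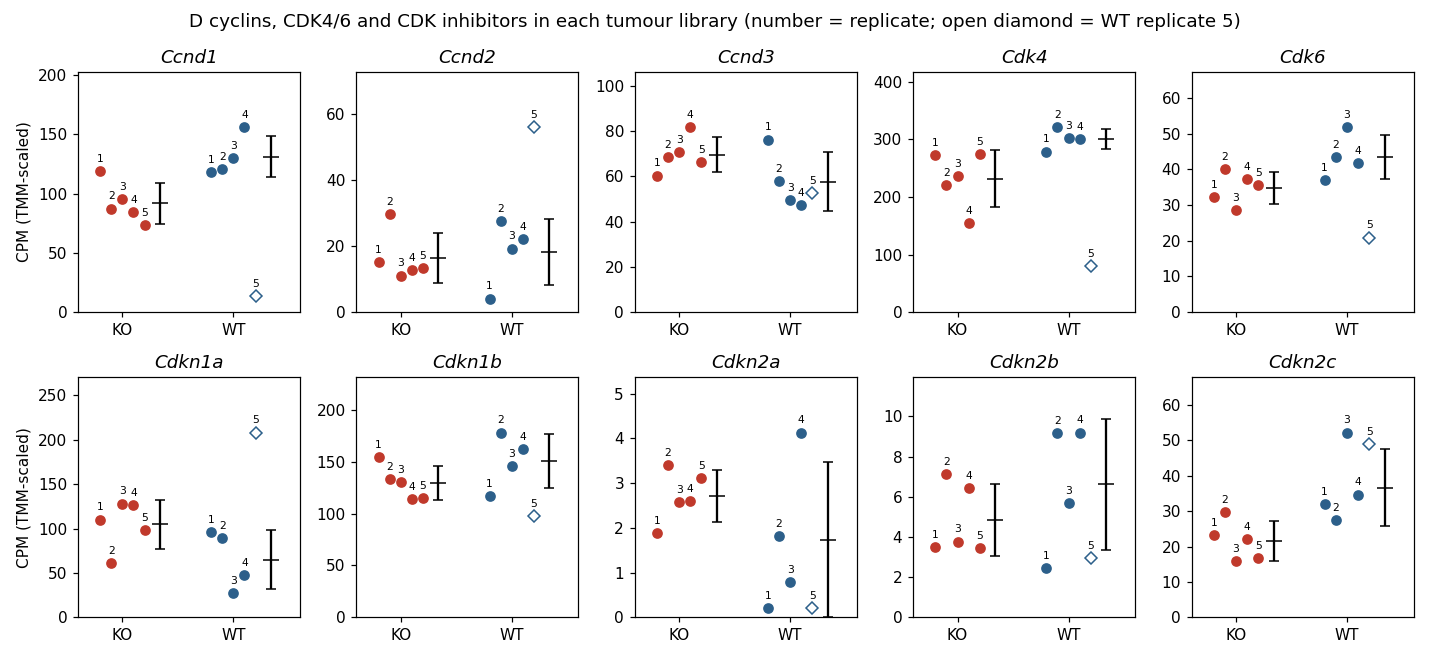
TMM-scaled CPM (vertical axes, from 0) of the 10 genes in 5 knockout (red) and 5 wild-type (blue) libraries, with the replicate number beside each point. Bars are mean ± SD over 5 knockout and 4 wild-type libraries, leaving out wild-type replicate 5 (open diamond), and the lower end of the wild-type bar of Cdkn2a is cut at 0. Wild-type replicate 5 is the lowest library for Ccnd1 and Cdk4 and the highest for Ccnd2 and Cdkn1a.

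Among the cyclins, Ccnd1 stood lower in knockout tumours once wild-type replicate 5 was left out. The knockout libraries stood at 119, 87.4, 95.5, 84.4 and 73.3 CPM, against 118, 121, 130, 156 and 13.4 CPM in wild type. Apart from wild-type replicate 5, which lay below every other library, only knockout replicate 1 reached the wild-type range. Without wild-type replicate 5 the knockout mean was 98.0 ± 18.0 CPM (SD, n = 5) and the wild-type mean 138 ± 19.1 CPM (SD, n = 4). The log2 fold change was then -0.50 ± 0.15 (SE, edgeR unadjusted p = 0.00719, adjusted p = 0.309). With all libraries the log2 fold change was -0.23 ± 0.48 (adjusted p = 0.887), and weighted voom gave -0.55 ± 0.21 there (adjusted p = 0.194). Leaving out 1 further library moved the value of the 9 libraries between -0.61 (without knockout replicate 1) and -0.40 (without wild-type replicate 4).

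Ccnd2, the D cyclin of many stromal and blood cells, was variable within both groups. In knockout tumours it stood at 15.2, 29.8, 11.1, 12.7 and 13.5 CPM, against 4.10, 27.6, 19.3, 22.2 and 56.1 CPM in wild type. The lowest and the highest library were both wild type. For Ccnd2 the log2 fold change was -0.65 ± 0.56 with all libraries (edgeR adjusted p = 0.737) and -0.13 ± 0.49 without wild-type replicate 5 (adjusted p = 0.935). On unscaled totals wild-type replicate 5 would stand at 32.7 CPM, next to knockout replicate 2 at 32.8 CPM, so its lead rests on the TMM factor. Wild-type replicate 1, lowest for Ccnd2, was also lowest for the 9 fibroblast markers (172 CPM summed, against 1466 to 12158 CPM elsewhere) and the 8 endothelial markers (72.0 CPM against 145 to 1042 CPM), and the part of these cells in the level of Ccnd2 was not tested.

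Ccnd3 had the opposite sign to Ccnd1 and nearly the same value in both fits. Levels were 60.3, 68.5, 70.5, 81.6 and 66.4 CPM in knockout, against 76.2, 57.8, 49.5, 47.2 and 52.4 CPM in wild type. Every knockout library lay above every wild-type library except replicate 1, the second highest of all 10. The log2 fold change was 0.30 ± 0.15 with all libraries (edgeR adjusted p = 0.669) and 0.29 ± 0.15 without wild-type replicate 5 (adjusted p = 0.497). Weighted voom gave 0.39 ± 0.11 (adjusted p = 0.105) with all libraries and 0.40 ± 0.11 (adjusted p = 0.109) without wild-type replicate 5. With that library out, leaving out wild-type replicate 1 as well gave 0.45 in edgeR, the highest value, and leaving out wild-type replicate 4 gave 0.20, the lowest.

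The balance between these cyclins can be read within a library, free of scaling. The ratio of Ccnd1 to Ccnd3 counts was 1.98, 1.27, 1.35, 1.03 and 1.10 in knockout replicates 1 to 5 and 1.55, 2.09, 2.63, 3.31 and 0.256 in wild-type replicates 1 to 5. Of the wild-type libraries 1 to 4, only replicate 1 lay within the knockout range. Per kb of exon, Ccnd1 led the family, with 19.5 ± 3.66 CPM per kb in the knockout group (SD, n = 5) and 27.9 ± 3.68 in wild-type replicates 1 to 4 (SD, n = 4), followed by Ccnd3 with 7.92 ± 0.888 and 6.57 ± 1.50 and Ccnd2 with 1.75 ± 0.810 and 1.94 ± 1.07. The share of Ccnd1 among the 3 was 66.5% ± 5.33 in knockout and 76.4% ± 3.94 in wild-type replicates 1 to 4, and that of Ccnd3 27.5% ± 4.73 and 18.3% ± 5.23. In wild-type replicate 5 Ccnd1 made up 19.3%, Ccnd2 40.3% and Ccnd3 40.4%. These shares were not tested, and they depend on the exon length used.

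**Figure D2:**
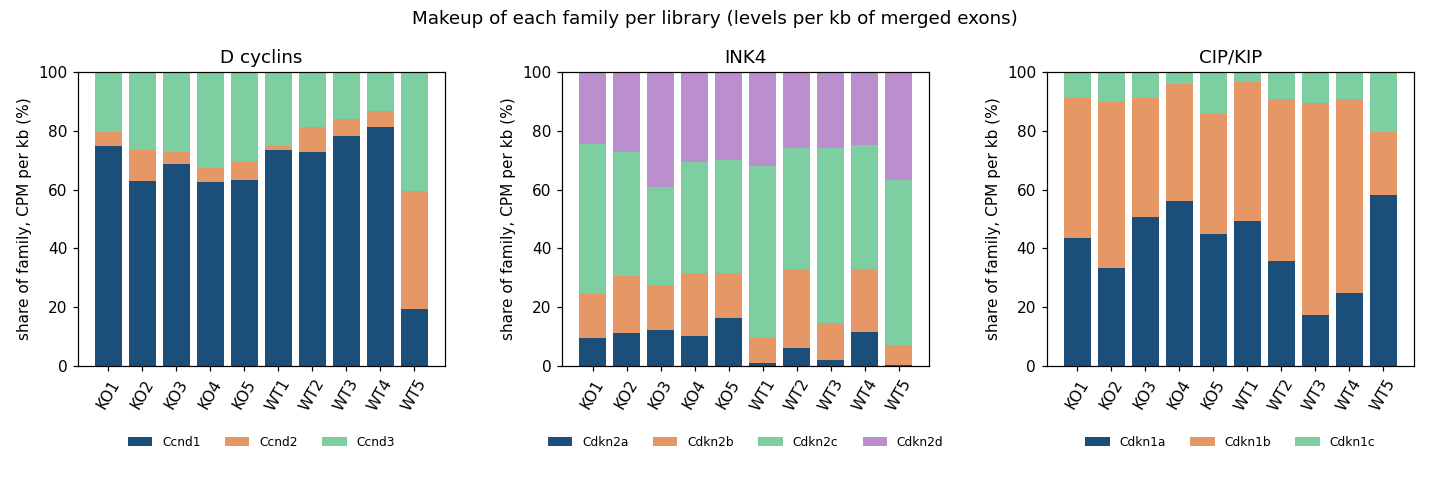
Share of each gene in the summed level of its family (vertical axis, percent of CPM per kb of merged exons) in each of the 10 libraries, for the D cyclins, the INK4 genes and the CIP/KIP genes. Ccnd1 makes up 62.7% to 81.1% of the D cyclins in 9 libraries and 19.3% in wild-type replicate 5.

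Of the kinases, Cdk4 stood lower in knockout tumours without wild-type replicate 5. Its knockout levels were 273, 220, 236, 155 and 275 CPM, against 279, 321, 303, 300 and 79.5 CPM in wild type. On this scale wild-type replicates 1 to 4 lay above all knockout libraries, but with the scaling of the 9 libraries alone the ranges met (knockout up to 293 CPM, wild type from 292 CPM). The means were then 247 ± 51.5 and 317 ± 18.0 CPM (SD, n = 5 and 4), and edgeR put the log2 fold change at -0.36 ± 0.16 (unadjusted p = 0.0452, adjusted p = 0.423), and with all libraries it was -0.15 ± 0.34 (adjusted p = 0.899). Knockout replicate 4, the lowest of the other 9 libraries, also held the most skeletal muscle (1590 CPM) and adipocyte (1925 CPM) marker RNA of those 9. Its luminal markers (8343 CPM) were the highest of all 10 libraries too. Without knockout replicate 4 as well the log2 fold change was -0.24. The part of these tissues in the value of Cdk4 was not tested.

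Cdk6, the other kinase, also stood lower in knockout tumours without wild-type replicate 5, at a far lower level than Cdk4 per kb of exon. Across the knockout libraries the kinases did not move together, since replicates 2 and 4, the lowest for Cdk4, were the highest for Cdk6. It ranged from 28.7 to 40.2 CPM in knockout and from 36.9 to 51.8 CPM in wild-type replicates 1 to 4, and stood at 20.9 CPM in wild-type replicate 5. Knockout replicates 2 and 4 lay within the wild-type range of replicates 1 to 4. The log2 fold change without wild-type replicate 5 was -0.30 ± 0.13 (edgeR unadjusted p = 0.0469, adjusted p = 0.426) and with it -0.16 ± 0.22 (adjusted p = 0.822). Per kb of exon Cdk4 made up 94.3% to 97.3% of the pair in every library, with 92.5 ± 5.32 CPM per kb against 3.11 ± 0.441 for Cdk6 in wild-type replicates 1 to 4 (SD, n = 4). The ratio of Cdk4 to Cdk6 counts was 6.81 ± 1.90 in the knockout group (SD, n = 5) and 6.99 ± 0.779 in wild-type replicates 1 to 4 (SD, n = 4).

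Among the CIP/KIP inhibitors, Cdkn1a, which encodes p21 and is a classical target of p53, stood higher in knockout tumours without wild-type replicate 5. The 5 knockout levels were 110, 61.1, 128, 126 and 98.3 CPM, against 95.9, 89.2, 27.6, 47.6 and 208 CPM in wild type. All knockout libraries but replicate 2 lay above wild-type replicates 1 to 4, and wild-type replicate 5 lay above all. Without that library the means were 111 ± 28.7 and 68.4 ± 34.2 CPM (SD, n = 5 and 4), and edgeR put the log2 fold change at 0.70 ± 0.36 (adjusted p = 0.489), and with it 0.16 ± 0.47 (adjusted p = 0.922). Weighted voom gave 1.20 ± 0.33 (adjusted p = 0.108) without that library and 1.19 ± 0.33 (adjusted p = 0.106) with it. On unscaled totals wild-type replicate 5 would stand at 121 CPM, within the knockout range of 67.2 to 128 CPM. Libraries with the same leading number had similar levels in 2 of the 3 pairs, with absolute log2 differences of 0.02 (knockout replicates 3 and 4) and 0.10 (wild-type replicates 1 and 2), against 0.79 in the third pair and a median of 0.84 over the 13 other pairs within a group. Such likeness did not hold for every gene. For Ccnd2, wild-type replicates 1 and 2 differed by 2.75 and the other 2 pairs by 0.20 each, against a median of 0.52 over the 13 other pairs. Leaving out wild-type replicate 3 as well brought the log2 fold change of Cdkn1a over the 9 libraries to 0.45, the lowest, and leaving out wild-type replicate 1 to 0.95, the highest.

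Cdkn1b, which encodes p27, had widely overlapping ranges in the 2 groups. It ranged from 114 to 154 CPM in knockout and from 117 to 178 CPM in wild-type replicates 1 to 4, and stood at 97.5 CPM in wild-type replicate 5. For Cdkn1b the log2 fold change was -0.12 ± 0.18 with all libraries (edgeR adjusted p = 0.846) and -0.20 ± 0.14 without wild-type replicate 5 (adjusted p = 0.585). The ratio of Cdkn1a to Cdkn1b counts was 0.711, 0.459, 0.979, 1.10 and 0.854 in knockout replicates 1 to 5 and 0.816, 0.502, 0.189, 0.294 and 2.13 in wild-type replicates 1 to 5. The 2 lowest ratios were those of wild-type replicates 3 and 4.

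Of the INK4 inhibitors, Cdkn2c, which encodes p18, had the smallest p of the 10 genes with all libraries and was lower in knockout tumours with and without wild-type replicate 5. By library it was at 23.2, 29.7, 16.0, 22.2 and 16.8 CPM in knockout, against 32.1, 27.6, 52.2, 34.7 and 48.9 CPM in wild type. The groups overlapped only through knockout replicate 2 and wild-type replicate 2. The log2 fold change was -0.86 ± 0.24 with all libraries (edgeR unadjusted p = 0.00459, adjusted p = 0.669) and -0.75 ± 0.23 without wild-type replicate 5 (unadjusted p = 0.00997, adjusted p = 0.317). It was not called by DESeq2 (adjusted p = 0.126 with all libraries and 0.0851 without wild-type replicate 5) or by weighted voom (0.0929 and 0.103). On unscaled totals wild-type replicate 5 would stand at 28.5 CPM, within the knockout range of 16.1 to 32.7 CPM. Relative to its targets, Cdkn2c gave 0.617 ± 0.112 counts per Cdk6 count in the knockout group (SD, n = 5) and 0.836 ± 0.154 in wild-type replicates 1 to 4 (SD, n = 4), and 0.0985 ± 0.0383 and 0.122 ± 0.0362 counts per Cdk4 count, with overlapping ranges in both cases.

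Cdkn2a and Cdkn2b, neighbours in 1 locus, were low throughout. Cdkn2a, which encodes both the INK4 inhibitor p16 and, from another start and reading frame, the p53 activator ARF, gave 71, 110, 71, 86 and 115 counts in knockout replicates 1 to 5 and 7, 75, 37, 149 and 3 counts in wild-type replicates 1 to 5. As levels these were 1.89 to 3.41 CPM in knockout and 0.200 to 4.13 CPM in wild type. The knockout libraries lay close together, whereas the wild-type libraries held both the lowest and the highest value. The coefficient of variation was 21.7% in knockout and 99.7% in wild-type replicates 1 to 4. For Cdkn2a the log2 fold change was 0.91 ± 0.73 with all libraries (edgeR adjusted p = 0.725) and 0.66 ± 0.65 without wild-type replicate 5 (adjusted p = 0.717). It reached 1.54 without wild-type replicate 4 as well and 0.29 without wild-type replicate 1. Counts per gene do not separate the transcripts for p16 and ARF. In absolute log2 terms, wild-type replicates 1 and 2 differed by 3.11, replicates 3 and 4 of that group by 2.38, and knockout replicates 3 and 4 by 0.01.

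Cdkn2b, which encodes p15 and is induced by TGF-beta in epithelium, gave 3.49, 7.13, 3.77, 6.45 and 3.46 CPM in knockout replicates 1 to 5 and 2.44, 9.16, 5.67, 9.20 and 2.94 CPM in wild-type replicates 1 to 5. The knockout values lay within the wild-type range. For Cdkn2b the log2 fold change was -0.28 ± 0.43 with all libraries (edgeR adjusted p = 0.847) and -0.43 ± 0.41 without wild-type replicate 5 (adjusted p = 0.704), and -0.72 ± 0.32 and -0.73 ± 0.34 by weighted voom (adjusted p = 0.255 and 0.279). Wild-type replicate 1 was the lowest library for Cdkn2b and, of the 9 other than wild-type replicate 5, for Cdkn2a. On unscaled totals wild-type replicate 5 would be lower for Cdkn2b (1.71 against 2.46 CPM in wild-type replicate 1).

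Per kb of exon the 10 genes spanned a wide range of levels. In wild-type replicates 1 to 4 the order was Cdk4 (92.5 ± 5.32 CPM per kb, SD, n = 4), Cdkn1b (33.1 ± 5.64), Ccnd1 (27.9 ± 3.68), Cdkn1a (18.3 ± 9.25), Cdkn2c (13.6 ± 4.00), Ccnd3 (6.57 ± 1.50), Cdkn2b (4.76 ± 2.33), Cdk6 (3.11 ± 0.441), Ccnd2 (1.94 ± 1.07) and Cdkn2a (1.48 ± 1.47). Neighbours in this order had overlapping intervals of mean ± SD except Cdk4 and Cdkn1b, and Cdkn2c and Ccnd3. This order depends on the lengths used. By the longest transcript, Ccnd1 (35.1 ± 4.64) came before Cdkn1b (33.1 ± 5.64), and Ccnd3 (14.9 ± 3.41) and Cdkn2c (14.8 ± 4.35) stood together. In knockout tumours Cdkn2c stood at 8.04 ± 2.07 and Ccnd3 at 7.92 ± 0.888 CPM per kb of merged exons (SD, n = 5), but at 8.73 ± 2.25 and 18.0 ± 2.02 by the longest transcript. Of the INK4 genes with Cdkn2d included, Cdkn2c made up 40.5% ± 6.65 in knockout and 50.4% ± 10.0 in wild-type replicates 1 to 4, and Cdkn2a 11.9% ± 2.68 and 5.18% ± 4.80. The spans of Ccnd1, Ccnd3 and Cdk4 overlap a protein-coding gene on the opposite strand in a GRCm38 annotation (LTO1, Bysl and Tspan31) and the libraries were stranded per the labels' protocols. No source used here states the strand setting of the counting.

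**Figure D3:**
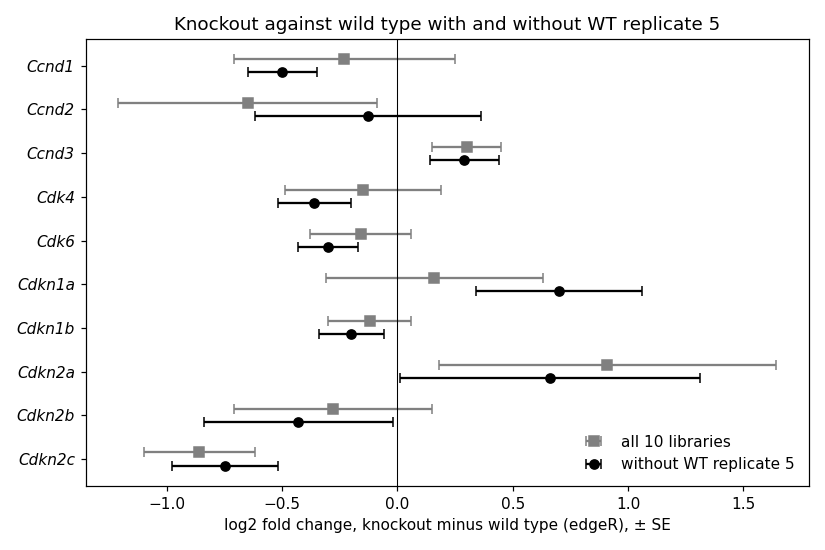
Log2 fold change of knockout minus wild type (horizontal axis, edgeR, ± SE) for the 10 genes with all 10 libraries (grey squares) and without wild-type replicate 5 (black circles). The sign is the same in both fits for all 10 genes, and the SE of Ccnd1 goes from 0.48 to 0.15 without that library.

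Genes of DNA synthesis and mitosis, which act after entry into the cycle, also had lower values in knockout tumours, with and without wild-type replicate 5. A list of 26 such genes summed to 984 to 1841 CPM in the knockout libraries, 2028 to 2723 CPM in wild-type replicates 1 to 4 and 254 CPM in wild-type replicate 5. With all libraries 26 of 26 log2 fold changes were negative (background 56.2%), with a median of -0.51 against -0.06 over all genes tested, and edgeR found 0 of 26 called and 0 of 26 at an unadjusted p under 0.05 (background for lower genes 4.44%). Without wild-type replicate 5, 26 of 26 were again negative (background 46.8%), with a median of -0.78 against 0.03, 25 of 26 were lower at an unadjusted p under 0.05 (background 5.85%) and 1 of 26 was called (background 0.0105%). The called gene was Ccnb2 (edgeR adjusted p = 0.0372, against 0.780 with all libraries). Ccnb2 is cyclin B2 of the mitotic kinase, and the next by p were Ccnb1, cyclin B1 (adjusted p = 0.110, against 0.794), and Cdc20, which activates the anaphase-promoting complex (adjusted p = 0.133, against 0.804). The list was chosen with earlier results of these data known. Wild-type replicate 5 had the lowest sum, the lowest Ccnd1 and Cdk4 and the highest Cdkn1a, and knockout replicate 4 had the next lowest sum and the next lowest Cdk4. The order was not kept throughout. Knockout replicate 5, with the highest knockout sum (1841 CPM), had the next lowest Ccnd1, and wild-type replicate 5, with the lowest sum, had the second highest Cdkn2c. These points share library, depth and scaling, and no test was made of the relation.

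**Figure D4:**
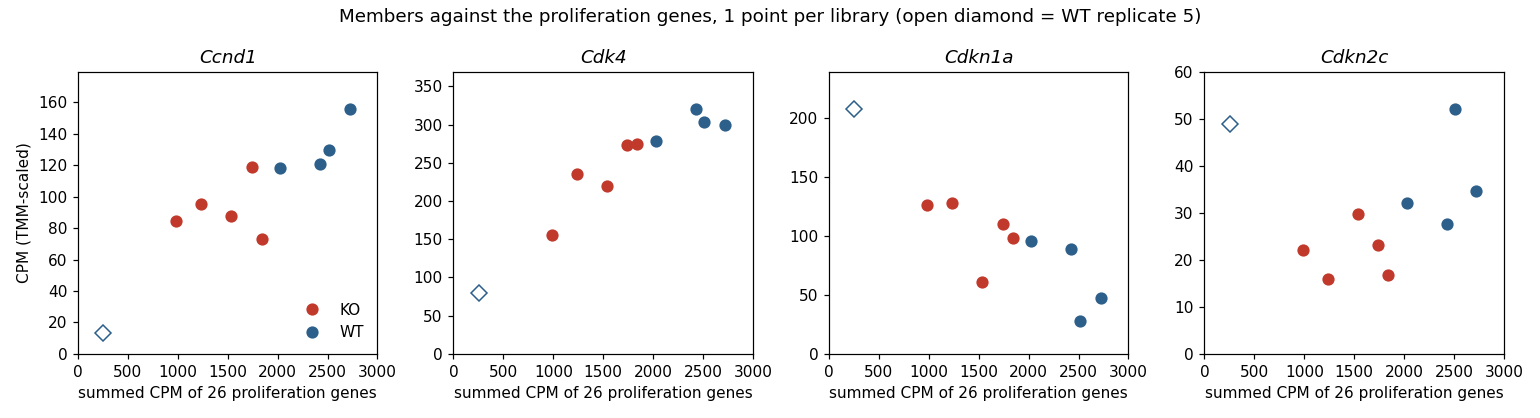
TMM-scaled CPM of Ccnd1, Cdk4, Cdkn1a and Cdkn2c (vertical axes) against the summed CPM of 26 proliferation genes (horizontal axis), 1 point per library, knockout in red, wild type in blue, wild-type replicate 5 as an open diamond. Wild-type replicate 5 (254 CPM on the horizontal axis) lies at the low end for Ccnd1 and Cdk4 and at the high end for Cdkn1a and Cdkn2c.

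Markers of several other cell types had higher means in knockout tumours. As a background, 46.8% of all genes tested had a negative log2 fold change without wild-type replicate 5. Against wild-type replicates 1 to 4, mean CPM in knockout was higher for 10 of 10 adipocyte markers (summed 40.7 to 1925 against 23.4 to 283 CPM), 11 of 11 skeletal muscle markers (3.33 to 1590 against 3.53 to 88.5 CPM), 9 of 9 fibroblast markers (3346 to 6996 against 172 to 5660 CPM) and 8 of 8 endothelial markers (167 to 321 against 72.0 to 239 CPM). Each summed range overlapped between the groups, and single libraries weighed on the means. Muscle markers reached 1590 CPM in knockout replicate 4 but 3.38 and 3.33 CPM in knockout replicates 2 and 5. Adipocyte markers stood at 1684 and 1925 CPM in knockout replicates 2 and 4 and at 40.7 to 111 CPM in the other knockout libraries. Fibroblast markers stood at 172 and 1466 CPM in wild-type replicates 1 and 2, but replicates 3 and 4 (5660 and 5262 CPM) lay within the knockout range. Of these lists Cidec and Lep (adipocyte) and Myh1, Myh4, Tnnc2 and Pvalb (muscle) were at 0 in at least 1 library, and none was at 0 in all. Luminal markers ran from 4882 to 8343 CPM in knockout and from 5311 to 6515 CPM in wild-type replicates 1 to 4, with 7 of 12 higher in mean. Myoepithelial markers were higher in mean for 3 of 8 (219 to 397 against 199 to 817 CPM), macrophage markers for 3 of 9 (520 to 873 against 411 to 878 CPM), neutrophil markers for 6 of 7 (26.1 to 315 against 20.4 to 1265 CPM) and B cell markers for 3 of 6 (0.907 to 9.65 against 1.19 to 3.61 CPM). The neutrophil sum was highest in wild-type replicate 1 (1265 CPM) and stood at 108, 20.4 and 28.4 CPM in wild-type replicates 2 to 4, so sum and number of markers need not go together. T and NK cell markers were higher in mean for 9 of 10 and did not overlap as a sum (8.13 to 12.6 against 5.79 to 7.55 CPM). Singly, 1 of the 10 was higher without overlap, where 2.00% of all genes tested were (with the scaling of the 9 libraries). The sum was low, and Ncr1 and Prf1 were at 0 in at least 1 library. Wild-type replicate 5 (11.6 CPM) lay within the knockout range of this sum. The part of all these cell types in the levels of the cyclins, kinases and inhibitors was not tested.

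The genes that act next to D cyclins were read from 7 lists, in which edgeR called no gene in either fit (with all libraries 1301, and without wild-type replicate 5, 2204 genes had an unadjusted p under 0.05). The values that follow are without wild-type replicate 5 unless all libraries are named, and the shares of all genes at an unadjusted p under 0.05 were then 5.85% lower and 5.74% higher (4.44% and 2.56% with all libraries). Of 11 tested genes of the cyclin E, cyclin A and CDK2 step, which follows CDK4 and CDK6, 5 were lower and 0 higher at an unadjusted p under 0.05, with a median log2 fold change of -0.27. With all libraries 1 was lower and 0 higher, with a median of -0.23. Cks2, a subunit that docks on cyclin-dependent kinases, had knockout and wild-type means of 26.1 ± 2.73 and 41.4 ± 3.21 CPM (SD, n = 5 and 4), and edgeR put its log2 fold change at -0.66 ± 0.11 (adjusted p = 0.138). Ccne2, cyclin E2 (-0.59 ± 0.18, adjusted p = 0.317), and Ccna2, cyclin A2 (-0.77 ± 0.24, adjusted p = 0.317), were not called. Cks2 and Ccne2 had separate ranges in the genotypes, which overlapped with all libraries. They were among 3 of 11 genes of this step that were lower without overlap, where 3.44% of all genes tested were. With all libraries 0 of 11 were, where 1.18% of all genes were. The values of Cks2, Ccne2 and Ccna2 with all libraries were -0.39 ± 0.53, -0.53 ± 0.20 and -0.49 ± 0.59 (edgeR adjusted p = 0.824, 0.669 and 0.806).

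Of 10 pocket proteins, E2F factors and their partners, the direct targets of the kinases and what they hold, 4 were lower and 0 higher at that level, with a median of -0.21, and with all libraries 1 was lower and 0 higher, with a median of -0.20. Tfdp1, the DNA-binding partner of E2F factors, stood at 96.1 ± 18.6 and 137 ± 11.7 CPM (log2 fold change -0.51 ± 0.14, edgeR adjusted p = 0.296), E2f1 at 13.7 ± 0.985 and 19.7 ± 3.81 CPM (-0.52 ± 0.15, adjusted p = 0.298) and Rbl1, the pocket protein p107, at 25.7 ± 5.67 and 37.6 ± 2.01 CPM (-0.55 ± 0.16, adjusted p = 0.299). Tfdp1 and Rbl1 were among 3 of 10 genes that were lower without overlap (3.44% of all genes tested), against 0 of 10 with all libraries (1.18%). With all libraries Tfdp1, E2f1 and Rbl1 gave -0.43 ± 0.18, -0.34 ± 0.29 and -0.31 ± 0.39 (edgeR adjusted p = 0.669, 0.735 and 0.811). The other 2 inhibitors of these families did not pass the test, Cdkn2d with a log2 value of -0.25 ± 0.20 (edgeR adjusted p = 0.648) and Cdkn1c with 0.39 ± 0.40 (adjusted p = 0.730). With all libraries Cdkn2d gave -0.45 ± 0.24 and Cdkn1c turned to -0.40 ± 0.58 (edgeR adjusted p = 0.669 and 0.837).

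**Figure D5:**
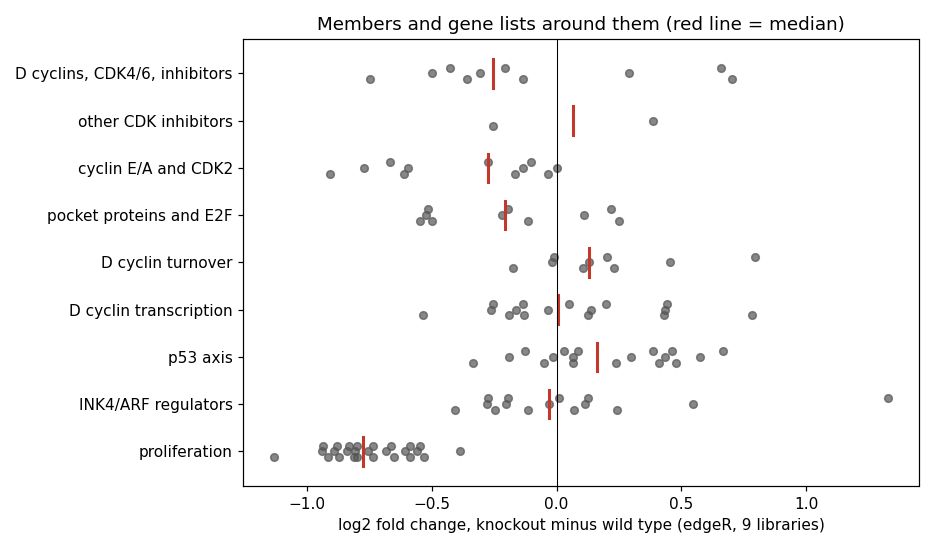
Log2 fold changes of knockout minus wild type without wild-type replicate 5 (horizontal axis, edgeR) for each tested gene of the D cyclin and inhibitor set, of 7 lists of neighbouring genes and of the proliferation list, with each median as a red line. The medians run from -0.78 for proliferation to 0.16 for the p53 axis.

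Of 18 genes of the p53 axis, which acts on Cdkn1a, 2 were higher and 0 lower at an unadjusted p under 0.05, with a median of 0.16, and with all libraries the counts were again 2 and 0, with a median of 0.08. Zmat3 stood at 44.1 ± 9.80 and 32.7 ± 5.74 CPM (log2 fold change 0.43 ± 0.18, edgeR adjusted p = 0.411) and Trp53inp1 at 126 ± 27.3 and 90.2 ± 23.4 CPM (0.48 ± 0.21, adjusted p = 0.426), both known p53 targets. Gdf15, a stress-induced cytokine, was low, at 0.787 ± 0.276 and 0.492 ± 0.131 CPM (0.67 ± 0.34, adjusted p = 0.484). With all libraries Zmat3, Trp53inp1 and Gdf15 gave 0.41 ± 0.18, 0.63 ± 0.28 and 0.55 ± 0.32 (edgeR adjusted p = 0.669, 0.669 and 0.670). Of 15 regulators of the Cdkn2a and Cdkn2b locus, 2 were higher and 2 lower, with a median of -0.03, and with all libraries 0 were higher and 1 lower, with a median of -0.10. Bmi1, a Polycomb protein that represses the locus, stood at 68.8 ± 2.46 and 83.2 ± 4.53 CPM (-0.27 ± 0.07, adjusted p = 0.294), and its groups did not overlap with or without wild-type replicate 5. Ezh2, the methyltransferase of Polycomb complex 2, stood at 66.1 ± 9.92 and 87.6 ± 4.86 CPM (-0.41 ± 0.12, adjusted p = 0.304). The groups of Ezh2 overlapped only with all libraries. Of the 15 regulators 2 were lower without overlap (3.44% of all genes tested), and with all libraries 1 was (1.18%). Tbx3, a repressor of ARF, had a log2 fold change of 1.33 ± 0.44 (adjusted p = 0.330) and of -0.98 ± 1.00 with all libraries, where wild-type replicate 5 stood at 48.2 CPM. Bmi1 and Ezh2 gave -0.32 ± 0.09 and -0.18 ± 0.36 with all libraries (edgeR adjusted p = 0.669 and 0.882).

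Of 9 genes of D cyclin turnover and CDK4 folding, 1 was higher and 1 lower at that level, with a median of 0.13, and with all libraries 0 were higher and 0 lower, with a median of 0.06. Fbxo31, an F-box protein that targets cyclin D1, gave 0.79 ± 0.25 as its log2 fold change (edgeR adjusted p = 0.318) and -0.41 ± 0.64 with all libraries. Fbxo4, another F-box protein of cyclin D1, gave 0.46 ± 0.22 (adjusted p = 0.464), and 0.15 ± 0.30 with all libraries (adjusted p = 0.880). Cdc37, the kinase co-chaperone that delivers CDK4 to HSP90, stood at 212 ± 8.22 and 239 ± 8.44 CPM (-0.17 ± 0.07, adjusted p = 0.407), with -0.17 ± 0.10 with all libraries (adjusted p = 0.671), and its groups did not overlap in either fit. That made 1 of 9 genes lower without overlap in both fits, where 3.44% of all genes tested were, and 1.18% with all libraries. Of 16 transcription factors known to act on D cyclin genes, 2 were higher and 0 lower in both fits, with medians of 0.01 and, with all libraries, 0.12. Foxo1, which represses D cyclin genes, stood at 198 ± 53.9 and 115 ± 22.9 CPM (0.78 ± 0.21, adjusted p = 0.294), Stat3 at 493 ± 111 and 365 ± 54.1 CPM (0.44 ± 0.17, adjusted p = 0.382) and Nfkb1 at 109 ± 13.8 and 95.1 ± 17.5 CPM (0.20 ± 0.14, adjusted p = 0.605). With all libraries Foxo1, Stat3 and Nfkb1 gave 0.59 ± 0.24, 0.58 ± 0.26 and 0.25 ± 0.16 (edgeR adjusted p = 0.669, 0.669 and 0.682).

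The genes most like each D cyclin across libraries were taken from 9907 genes by Pearson's r of log2 CPM over the 9 libraries without wild-type replicate 5, as a description. For Ccnd1 these were Timm8a1 (0.96), Trit1 (0.96) and Lsm8 (0.93), of which only Lsm8 kept a like value over all 10 libraries (0.90, against -0.31 and -0.05). For Ccnd2 they were Maf, Ly6d and Pdzrn3 (0.95 each), with 0.90, -0.06 and 0.94 over 10 libraries. For Ccnd3 they were Clcn2 (0.94), Ptpn11 (0.92) and Ralgapa2 (0.92), with 0.87, 0.13 and 0.45 over 10 libraries. The highest of 9907 values over 9 points are high by selection, and the libraries share depth and scaling.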

How the data were processed

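RNA of 10 mammary tumour libraries was measured by poly(A) sequencing. The deposited values are raw read counts for each Ensembl gene in each library, and 0 columns lacked a sample. Tools named in the submitters' processing notes are FastQC, STAR, featureCounts and DESeq2, with the build GRCm39. Their versions and settings, strand included, were not given in the sources used here. Of 57010 rows, 52029 had a symbol. The 2 genotypes were compared by edgeR 4.0.16 under R 4.3.3 (quasi-likelihood F-test, robust, TMM, filterByExpr), with and without wild-type replicate 5, and the SE is the log2 fold change divided by the square root of F. Other settings tried were DESeq2 1.42.0, limma-voom (limma 3.58.1) with sample quality weights, RLE scaling, all genes without a filter, at least 10 counts in every library, sums per leading number, that number as a block, and leaving out each library. The block was fitted by limma-voom without quality weights. Exon lengths came from a GRCm38 GENCODE annotation. Named beside the 10 genes were the 3 genes of smallest p (without wild-type replicate 5) of each list of neighbouring genes, and the 3 genes most like each D cyclin (mean of at least 10 CPM, pseudocount 0.5, no Gm or Rik names). The genes, lists and tests were chosen with earlier results of these data known. Fits were tested on simulated data without an outlying library, in which the spread of each gene was capped. That simulation therefore does not bear on the effect of wild-type replicate 5. Each library has its own batch label, so batch and group cannot be told apart.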

Additional observations from a re-analysis of the deposited data

Results flagged for a closer look

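Among 87 sets of 4 or 5 libraries examined for a single library far from the rest (gap to the nearest library as a share of the whole range), 17 exceeded Dixon's 95% critical value. Chance gives about 1 in 20 for independent sets of normally distributed values. These sets share libraries and genes, and many of the 17 are the same library, so the count cannot be set against that share. Wild-type replicate 5 stood apart from the other wild-type libraries as the lowest for Ccnd1 (13.4 CPM, gap share 0.734), Cdk4 (79.5 CPM, 0.825), the share of Ccnd1 among D cyclins (19.3%, 0.868), the proliferation genes (0.719) and the luminal markers (0.811). It was the highest for the share of Ccnd2 among D cyclins (40.3%, 0.819), for Cdkn2c per Cdk4 count (0.615, gap share 0.837) and per Cdk6 count (2.34, gap share 0.782), and for endothelial (0.828), adipocyte (0.978) and skeletal muscle markers (0.999). In knockout tumours replicate 2 was the highest for Ccnd2 (29.8 CPM, 0.778), for the share of Ccnd2 (10.7%, 0.726) and for B cell markers (9.65 CPM, 0.732), and replicate 4 for skeletal muscle markers (1590 CPM, 0.898). Wild-type replicate 1 was the highest for neutrophil markers (1265 CPM), with gap shares of 0.923 over 5 and 0.929 over 4 wild-type libraries. No cause of these gaps was tested.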

How the results depend on the processing

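None of the 10 genes was called under any of the alternatives tried, and the fold changes of Ccnd3, Cdk6, Cdkn1b, Cdkn2a, Cdkn2b and Cdkn2c kept their sign in all of them. With all 10 libraries the number of genes called in all was 0 in edgeR, 54 in DESeq2 and 17 in limma-voom with sample quality weights, and 0 to 2 when 1 library was left out. Without wild-type replicate 5 it was 2 in edgeR, 463 in DESeq2, 143 in limma-voom with sample quality weights, 0 with sums or blocks by leading number, and 0 to 1 when 1 further library was left out. With all libraries, sums per leading number turned the log2 fold changes of Ccnd1 (0.01), Cdk4 (0.08) and Cdkn1a (-0.17). Those of Ccnd1 (0.29) and Cdk4 (0.24) also turned in the block fit, which used limma-voom without quality weights. That tool was not run without the block, so the effects of block and tool cannot be told apart. Leaving out 1 library moved Cdkn1a between -0.07 (without wild-type replicate 3) and 0.70 (without wild-type replicate 5). Without wild-type replicate 5, Ccnd2 turned in the block fit (0.03), and leaving out 1 further library moved Ccnd2 in edgeR between -0.47 (without wild-type replicate 1) and 0.12 (without wild-type replicate 2). The cause was not tested. Cdkn2a was not tested where at least 10 counts were asked of every library. With the length of the longest transcript in place of merged exons, the mean share of Ccnd1 was 54.1% in knockout and 66.2% in wild-type replicates 1 to 4, that of Ccnd3 40.1% and 28.4%, and in knockout that of Cdkn1a 58.4% and of Cdkn1b 34.1%. No paired analysis was possible because the labels give no replicate numbers that the groups share. Depth limits Cdkn2a most, with 3 and 7 counts in 2 wild-type libraries.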
